A study of Drosophila melanogaster with 2 samples.

Results

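The germ line and piRNA pathway genes described here are 30 protein-coding genes of Drosophila melanogaster, of 13968 on the nuclear chromosome arms. They were listed by symbol, with earlier results of these data known, and all 30 were found in the annotation, nos under its full name nanos. The series used 2 biological replicates of 1 group, whole embryos aged 0 to 16 hours of the strain CG31441-GFP, whose transgene joins the gene CG31441 to enhanced green fluorescent protein (eGFP). Sonicated chromatin was precipitated with an antibody against GFP, per the sample descriptions, and sequenced (ChIP-seq). There was no second genotype, treatment or time, so the comparisons open to these genes are between the replicates and with all other genes. The sources used here do not give the promoter that drives the fusion or the copy number of the transgene. Whole embryos mix all cell types over a wide span of development, and germ cells are few among them, so a strong signal in few cells and a weak one in many cannot be told apart.

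piRNAs are small RNAs of the germ line that guide PIWI proteins to the RNA of transposons. In the cytoplasm, in a perinuclear structure called nuage, Aub and AGO3 cut transposon and piRNA precursor RNA in turn, a cycle named ping-pong, and other precursors are processed on the surface of mitochondria and loaded onto Piwi, which silences transposons in the nucleus. Much of this machinery is deposited in the egg by the mother, as are the germ plasm components that set apart the pole cells, the founders of the germ line. CG31441 is a predicted zinc-finger protein.

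The sequences around 6 summits are shown because the results below turn on them: the strongest promoter summit of the set (orb), the strongest summit of a piRNA gene (papi), the promoter summits of squ and vas, which other genes share, the intronic summit of piwi and the strongest intronic summit of pum. A summit is the position within a peak that the authors' file marks as its highest point. Each sequence is 101 bases centred on the summit, read from the RefSeq genome of the assembly the peaks use (dm6) and written 5′ to 3′ on the strand of the gene. Capitals mark matches on either strand to the motifs searched, which were TATAAA in orb, the E-box CANNTG in papi, pum and vas, and in squ the site of the insulator protein BEAF-32, written CGATA. In piwi none of the 7 motifs matched. The windows lie at chr3R:23281047-23281147 (minus strand) for orb, chr2L:2221722-2221822 (plus) for papi, chr2L:16679931-16680031 (plus) for squ, chr2L:15061476-15061576 (plus) for vas, chr2L:10986367-10986467 (minus) for piwi and chr3R:9227438-9227538 (minus) for pum. None overlaps an annotated exon of a protein-coding gene.
orb: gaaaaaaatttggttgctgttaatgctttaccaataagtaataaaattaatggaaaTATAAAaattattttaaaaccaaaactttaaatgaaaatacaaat
papi: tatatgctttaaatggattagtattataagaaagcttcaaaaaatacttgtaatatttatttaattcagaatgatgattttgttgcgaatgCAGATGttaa
squ: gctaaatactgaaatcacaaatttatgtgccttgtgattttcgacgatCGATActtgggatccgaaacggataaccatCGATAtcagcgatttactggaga
vas: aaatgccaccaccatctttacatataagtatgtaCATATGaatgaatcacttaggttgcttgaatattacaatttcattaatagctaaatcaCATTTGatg
piwi: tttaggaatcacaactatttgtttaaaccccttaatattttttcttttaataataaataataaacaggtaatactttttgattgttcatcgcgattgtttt
pum: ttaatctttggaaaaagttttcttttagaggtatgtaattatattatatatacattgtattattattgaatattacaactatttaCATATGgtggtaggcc
The share of G and C was 17.8% in the orb window, 22.8% in each of papi, piwi and pum, 28.7% in vas and 39.6% in squ.

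The deposited values are peak lists, with no read counts, so the depth of the libraries is unknown. The conservative list of the whole series, in which a peak had to keep its rank across replicates by the irreproducible discovery rate (IDR), held 6501 peaks with a median signal of 180.4. A less strict list of the series held 7408. Each replicate had its own thresholded list, of 4964 peaks (replicate 1) and 5484 peaks (replicate 2), cut from ranked lists of 27371 and 31490 peaks. Signal is the authors' value for a peak. Its scale is not stated, and the median was 129.8 and 88.2 in the thresholded lists of replicates 1 and 2, so values from different lists stand side by side below and their ratio measures nothing. A further list, the ranked list of the series, held 34995 peaks.

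Of the 30 genes, 9 had a summit of the conservative list within 500 bp of a transcription start site (TSS), namely orb, papi, gcl, bgcn, squ, nos, pum, vas and exu. That is 30% of them, beside 18.2% of all protein-coding genes. A summit lay inside the gene body of 6 (bgcn, exu, papi, piwi, pum and vas), beside 12.7% of all genes, and at either place of 10, beside 23.5%. The germ plasm and maternal RNA group had most of the promoter summits, at 5 of its 9 genes. Ping-pong and nuage genes had one at 2 of 9, genes of piRNA production at mitochondria and of loading at 1 of 5, nuclear piRNA genes at 0 of 5, and the pair that controls stem cell differentiation at 1 of 2. No chance test was made on these counts, since the list was drawn up with results known, and groups of this size give only a description.

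The count varied with the list. The thresholded list of replicate 1 placed a promoter summit at 7 of the 30 genes, beside 17.3% of all genes, and that of replicate 2 at 10, beside 18.4%. The less strict list placed one at 10, beside 21.0%, with cuff and stau added and exu lost. In the ranked lists, which hold weak peaks too, the genes were close to the background, with 10 in replicate 1 beside 35.1% of all genes, and 14 in replicate 2 beside 43.1%. Only nos, orb, papi, pum and squ had a conservative promoter summit inside thresholded peaks of both replicates, 5 of 30 beside 12.1% of all genes. Among genes with a promoter summit, that is 5 of 9 (55.6%), beside 66.3%. For each of the 9, the strongest promoter summit had the same signal in the less strict list and in the ranked list of the series as in the conservative one, except exu, which the less strict list lacked. The same held for the strongest gene body summit of each of the 6 genes with one, with no exception. All lists of the series were made from the alignments of both replicates together, so an equal signal is no separate support. The gene spn-E was in the thresholded lists of both replicates and in no list of the series.

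**Figure D1:**
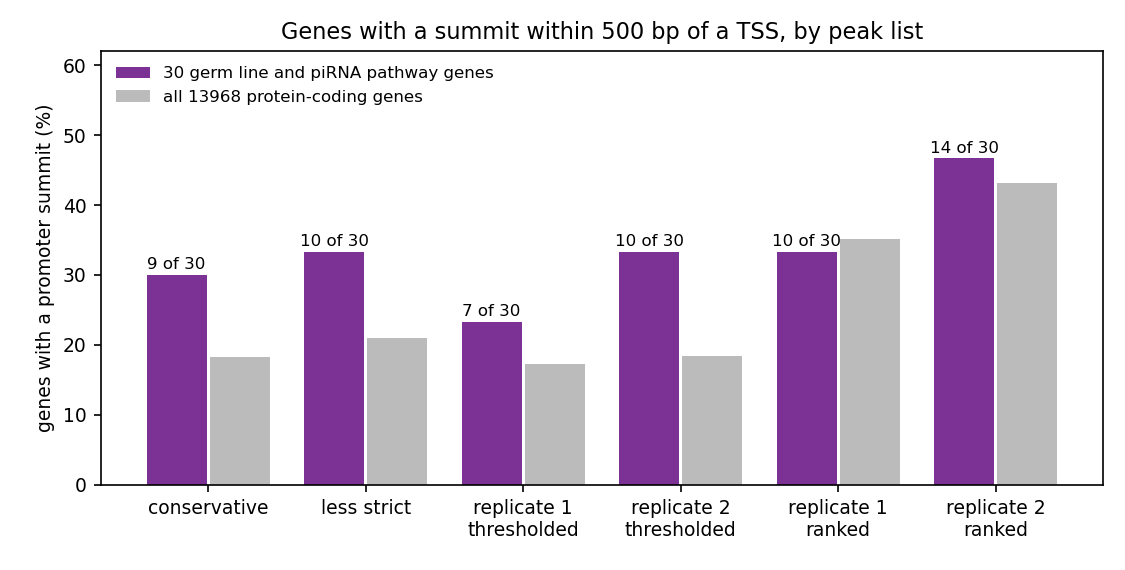
Share of genes (%) with a summit within 500 bp of a TSS in each of 6 peak lists, for the 30 germ line and piRNA pathway genes (purple, with the number of genes) and for all 13968 protein-coding genes (grey). The purple bar is above the grey one in the 4 thresholded lists and in the ranked list of replicate 2 (14 of 30 beside 43.1%), and below it in the ranked list of replicate 1 (10 of 30 beside 35.1%).

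Among the ping-pong and nuage genes, squ and vas carried conservative promoter summits, and both share their start site region with another gene. Squ encodes a nuage protein that binds Aub. Its summit had a signal of 267.0 in the conservative list, 204.6 in replicate 1 and 75.0 in replicate 2, and lay 73 bp upstream of the TSS (2L, peak from 16679817 to 16680130). It was thus in the thresholded lists of both replicates, with their summits 16 bp apart. The kinase gene grp starts at the same distance from this summit, so the peak cannot be given to squ or grp alone. An INE-1 transposon copy is annotated to begin within 500 bp, and whether the summit lies in it was not tested.

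Vas, the DEAD-box helicase that marks the germ line and organises nuage, had a promoter summit of signal 170.1 in the conservative list, 130 bp upstream of its TSS. Replicate 2 held it in the thresholded list with 57.3. Replicate 1 held it in the ranked list alone, with 104.1, so the replicates differed in whether it passed their thresholds. The gene solo starts at the same place as vas. A further conservative summit of 120.0 lay in an intron of vas, 6488 bp downstream of the TSS and 66 bp from the start of the nested gene vig, and was in the ranked lists alone in both replicates, with 67.4 and 47.9.

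The helicase gene spn-E, needed for ping-pong, was listed in each replicate and in no list of the series. Replicate 1 had a thresholded peak with a signal of 158.3 and its summit 170 bp upstream of the TSS, at the 93.7th percentile of the ranked list. Replicate 2 had one of 84.2, 198 bp upstream, at the 90.4th percentile. The nearest conservative summit lay 33316 bp away, and neither the less strict list nor the ranked list of the series held a peak at the promoter. Such a case was rare. Of 3958 thresholded peaks of replicate 1 that overlapped one of replicate 2, 76 (1.92%) overlapped no conservative peak, and 37 (0.935%) overlapped none of the 3 lists of the series just named. The start of ND-23, a subunit gene of respiratory complex I, lies within 500 bp of the same summits.

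The other 6 genes of the group had no conservative summit at a promoter or in the gene. Aub and AGO3 encode the PIWI proteins that cut RNA in ping-pong, and krimp, tud, qin and tej encode Tudor-domain proteins that hold nuage partners together. Aub, krimp, tud and tej had no promoter or gene body summit in any of the 7 lists read. AGO3 and qin are long genes, of 135.0 and 59.1 kb, and had 0 conservative summits. Of genes of like length, 27 of 87 (AGO3 among them) and 382 of 933 (qin among them) had none. In the ranked lists, AGO3 had intragenic peaks of up to 41.3 in replicate 1, 14.5 in replicate 2 and 54.4 in the series, and qin had them in replicate 1 alone, 4 peaks of up to 75.8.

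Of the genes for piRNA production at mitochondria and for loading, papi alone carried a conservative summit, and it was among the stronger of the whole list. Papi is a Tudor protein of the mitochondrial surface that helps to trim piRNA ends. Its main summit had a signal of 430.1 in the conservative list, at the 87.5th percentile of all promoter summits, 230.5 in replicate 1 and 203.3 in replicate 2. All 3 lists thus held it, and the replicates' summits lay 33 bp apart. It lay 317 bp upstream of an internal TSS, within an intron and 1024 bp downstream of the outermost TSS of papi (2L, peak from 2221591 to 2222042). No other protein-coding gene starts within 500 bp of it. A second summit in the same interval, of 148.3 at 114 bp upstream of that TSS, lay in a thresholded peak of 58.4 in replicate 2 and in a ranked peak of 32.2 in replicate 1.

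Zuc, vret and shu had no promoter or gene body summit in any list read. Zuc is the endonuclease that cuts piRNA precursors, vret a Tudor protein and shu a co-chaperone for loading. Armi, the helicase that feeds precursors to this step, had a single weak promoter peak, of 40.9 in replicate 1 before thresholding. The nearest conservative summit to a TSS of armi had a signal of 243.9 and lay 561 bp away, just outside the window, within 500 bp of the TSS of the translation factor gene eIF5B. The nearest to shu lay 1585 bp away at the shared promoter of CG5554 and Snap29, with a signal of 410.5.

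No nuclear piRNA gene had a conservative promoter summit, and piwi had one in its body. The piwi summit lay in an intron, 1003 bp downstream of the TSS (2L, peak from 10986298 to 10986589, minus strand). Its signal was 220.8 in the conservative list, 110.7 in replicate 1 and 111.0 in replicate 2. It was thus in both replicates' thresholded lists, with summits 16 bp apart. The summit base is soft-masked as repeat sequence in the genome, and a transposon copy of the INE-1 family is annotated to begin within 500 bp. Whether the summit lies in that copy, and whether the signal differs between copies of INE-1, was not tested.

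Of the other nuclear genes, cuff, mael and rhi had peaks in some lists alone and del had none. Rhi, del and cuff form a complex on heterochromatin that licenses transcription of piRNA clusters, and mael acts in silencing downstream of Piwi. Cuff had a promoter summit in the less strict list, with a signal of 119.5 at 48 bp upstream, and in the thresholded list of replicate 2, with 61.5, and none in replicate 1. CG13185 starts within 500 bp of it too. Mael had ranked peaks alone, of 56.2 in replicate 1 and 24.1 in replicate 2, which lay at different start sites of the gene, and of 66.4 in the series. Rhi had none at its promoter and 2 ranked peaks of up to 9.1 in the gene in replicate 2. The nearest conservative summit to a TSS of del, of 194.5, lay 769 bp away.

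**Figure D2:**
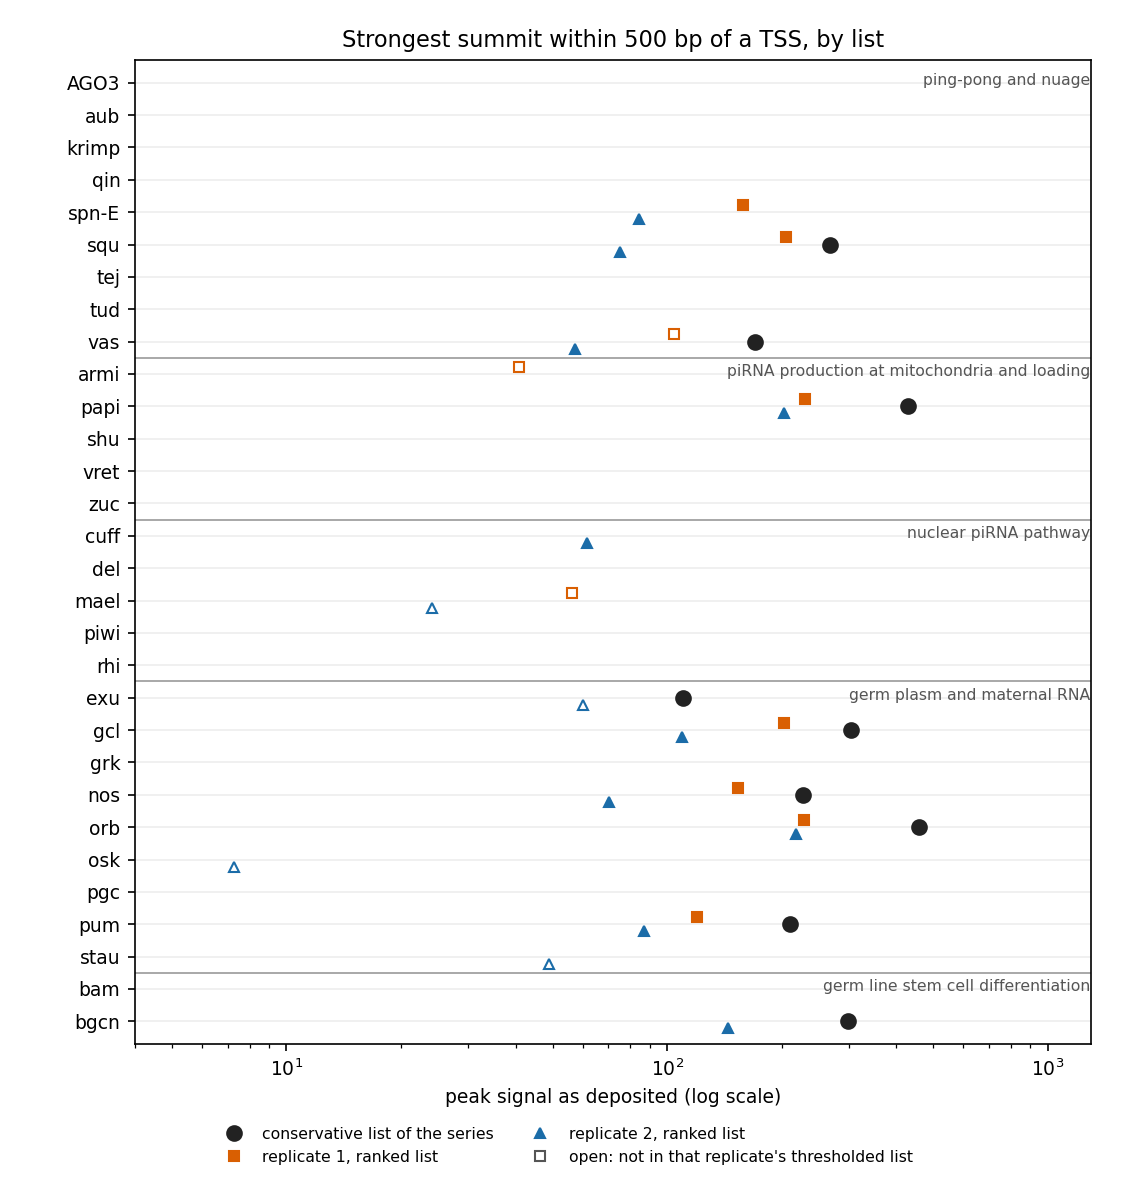
Signal (log scale, as deposited) of the strongest summit within 500 bp of a TSS of each of the 30 genes, by role group, in the conservative list (black circles) and in the ranked lists of replicate 1 (orange squares) and replicate 2 (blue triangles); open symbols are peaks outside that replicate's thresholded list. Orb (457.5) and papi (430.1) are highest, spn-E has both replicate symbols and no black circle, and most ping-pong, mitochondrial and nuclear genes have no symbol.

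The germ plasm and maternal RNA genes had 5 of the 9 promoter summits, at orb, gcl, nos, pum and exu. Orb, a regulator of the translation of localised maternal RNA, had the highest of the set, with a signal of 457.5 in the conservative list (90.0th percentile of promoter summits), 228.9 in replicate 1 and 217.5 in replicate 2. All 3 lists held it, and the replicates' summits were 29 bp apart. It lay 241 bp upstream of the orb TSS (3R, peak from 23280886 to 23281292) and 104 bp from that of Cdc16, a cell cycle gene that starts on the other side. The summit is thus nearer to Cdc16 than to orb.

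Gcl, which is needed to form pole cells, had a conservative promoter summit of 304.5, 242 bp upstream of its TSS and 177 bp from that of CG14767. Replicate 1 held it with 203.2. Replicate 2 had a thresholded promoter peak of 109.3 whose interval stops short of the conservative summit, and a ranked peak of 35.3 that covers it. The replicates' summits lay 100 bp apart, beside a median of 23 bp and a 90th percentile of 85 bp over 1445 promoter summits with a thresholded summit of each replicate within 200 bp. Gcl thus counts as shared or not by the rule used.

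Nos, the translational repressor of the posterior pole and of pole cells, had a summit of 227.0 in the conservative list, 153.9 in replicate 1 and 70.3 in replicate 2. Both replicates held it, with summits 85 bp apart. It lay 354 bp upstream of the nos TSS, inside the 5′ untranslated region of CG11779 and 72 bp from the TSS of that gene. It is the main promoter summit farthest from its own TSS among the 9.

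Pum, the RNA-binding partner of Nos, had a promoter summit of 209.9 in the conservative list, 119.9 in replicate 1 and 86.7 in replicate 2. It lay 288 bp upstream of the outermost TSS of pum, where no other protein-coding gene starts within 500 bp. The replicates' summits lay 23 bp apart. A weak second summit of 17.8, 491 bp upstream in the 3′ untranslated region of D1, lay within the same peaks of both replicates as the first and so is no separate call in them.

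Exu, which helps to localise bicoid RNA, had its promoter summit at 109.9, 23 bp upstream of the TSS, the lowest of the 9. It was in neither replicate's thresholded list and not in the less strict list, and a ranked peak of 60.1 in replicate 2 held it. Its stronger summit lay in its own 3′ untranslated region, 2404 bp downstream of the nearest TSS of exu, with 200.5 in the conservative list, 114.5 in replicate 1 and 88.1 in replicate 2. That one was in both thresholded lists. A weaker one of 33.7 lay in the same region, 419 bp from the start of the neighbour Fem-1.

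Osk, which builds the germ plasm, pgc, which holds back transcription in pole cells, grk, the ligand that sets egg polarity, and stau, which carries osk and bicoid RNA, had no conservative summit. Stau had a promoter summit of 166.5 in the less strict list, 140 bp upstream of its TSS and with Spn55B starting nearby, but among the replicates a ranked peak of 48.8 in replicate 2 alone. Osk had a ranked peak of 7.3 in replicate 2, under the list median of 20.5. Pgc and grk had none in any list read, and their nearest conservative summits lay 12582 and 28391 bp away.

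Bam and bgcn encode partners that push a stem cell daughter toward differentiation, and only bgcn had a summit. Its signal was 298.7 in the conservative list and 144.5 in replicate 2, whereas neither deposited list of replicate 1 held a peak there. How such a peak entered the conservative list was not tested. Of the 9 promoter summits, those of bgcn and exu lay in no ranked peak of replicate 1. Among all conservative peaks, 178 (2.74%) had a summit in no ranked peak of replicate 1. The bgcn summit lay 139 bp downstream of the TSS, in the 5′ untranslated region, with no other protein-coding gene starting within 500 bp. Bam had none in any list, and its nearest conservative summit, of 530.7, lay 2427 bp away where RpS27 and Nup37 start.

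The 9 promoter summits were mostly upstream of the TSS, as over all genes, and their median distance from it was larger. Their median signal was 267.0 (range 109.9 to 457.5), beside 240.7 (interquartile range 159.8 to 361.6) over 2541 genes with such a summit. All but bgcn, 8 of 9 (88.9%), had it upstream of the TSS, beside 89.0%, at a median of 241 bp from it, beside 168 bp. The median G and C share of the 101-base windows was 30.7%, equal to that over all promoter summits of the conservative list. Windows centred 150 bp upstream of all TSSs had 36.6%. The values ran from 17.8% at orb to 54.5% at nos. On a soft-masked base lay 2 of 9 (22.2%), at orb and papi, beside 30.3%.

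**Figure D3:**
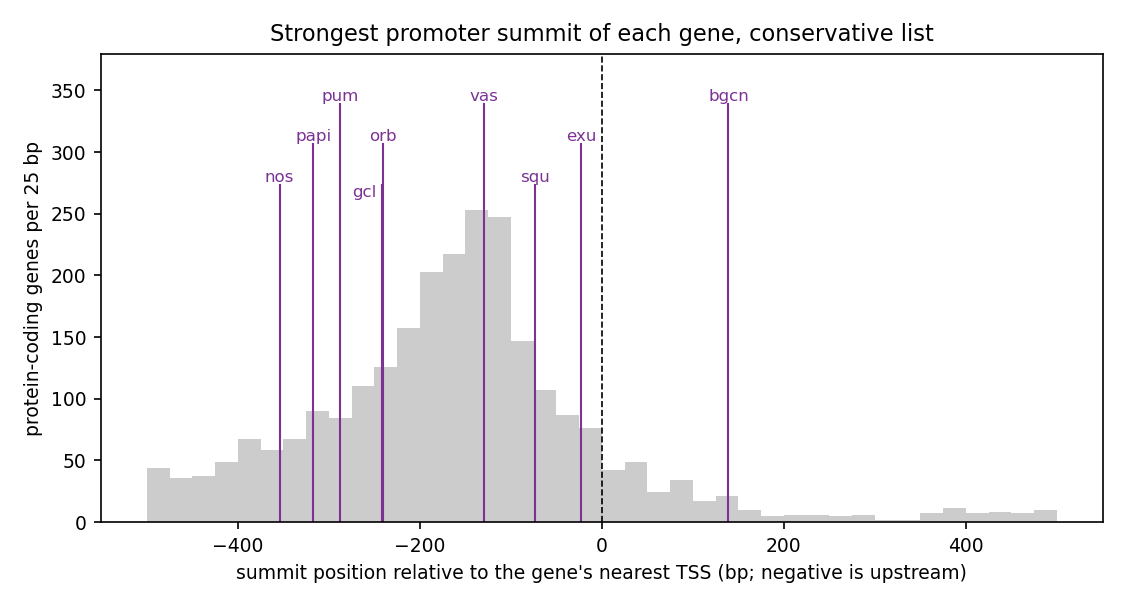
Position (bp, negative is upstream) of the strongest conservative promoter summit relative to the nearest TSS of the gene, as a histogram of all 2541 genes with one (grey, genes per 25 bp) and as a purple line for each of the 9 germ line and piRNA pathway genes. Of these, 8 lie upstream, from exu at 23 bp to nos at 354 bp, and bgcn lies 139 bp downstream.

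Most of these summits are open to more than 1 gene. Another protein-coding gene started within 500 bp of the summit at 6 of 9 (66.7%), beside 52.3% of all genes with one. Starts of non-coding genes were not counted. The summit was nearer to the neighbour at gcl, nos and orb, equally near to both at squ and vas, and nearer to its own TSS at exu. At bgcn, papi and pum no other protein-coding gene started within the window. Counting a summit only where no other protein-coding gene starts nearer left 6 of the 30 genes, beside 14.3% of all genes. Peaks alone do not say which gene of a shared promoter, if any, the protein acts on.

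The 7 motifs were searched on both strands in the 9 promoter windows. The E-box CANNTG, a site of basic helix-loop-helix factors, was in 7 of 9, all but orb and squ, beside 31.3% of 2361 promoter summits and 36.4% of windows 150 bp upstream of TSSs. CGATA, the BEAF-32 site, was in exu, nos and squ, beside 18.4% and 14.8%. TATAAA was in orb and pum, beside 27.5% and 18.7%. The DNA replication-related element TATCGATA, which contains CGATA and so counts for both motifs, was in exu alone, beside 2.88% and 1.04%. GAGAG of GAGA factor, CAGGTAG of Zelda and GGTCACAC, the core of the promoter Motif 1, matched in none of the 9, beside 8.98%, 0.508% and 1.52% of promoter summits. A match describes letters in a window and is not shown to be a bound site.

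Summits in the gene body followed gene length over the genome, and pum stood out among these genes by number. Of genes of up to 5 kb, 4.65% held a conservative summit, and 2 of 18 of the set did. Between 5 and 20 kb it was 27.4%, with 3 of 8 of the set, between 20 and 100 kb 59.1%, with 0 of 2 (orb and qin), and over 100 kb 69.0%, with 1 of 2 (pum, and not AGO3). Pum had 10 summits in 171.3 kb, or 5.84 per 100 kb. Of the 87 genes over 100 kb, pum among them, 13 held more and 73 held fewer. AGO3, of 135.0 kb, was with its 0 summits among 27 of the 87, and the nearest conservative summit lay 644480 bp from its TSSs. Qin was among 382 of 933 genes of 20 to 100 kb with none.

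**Figure D4:**
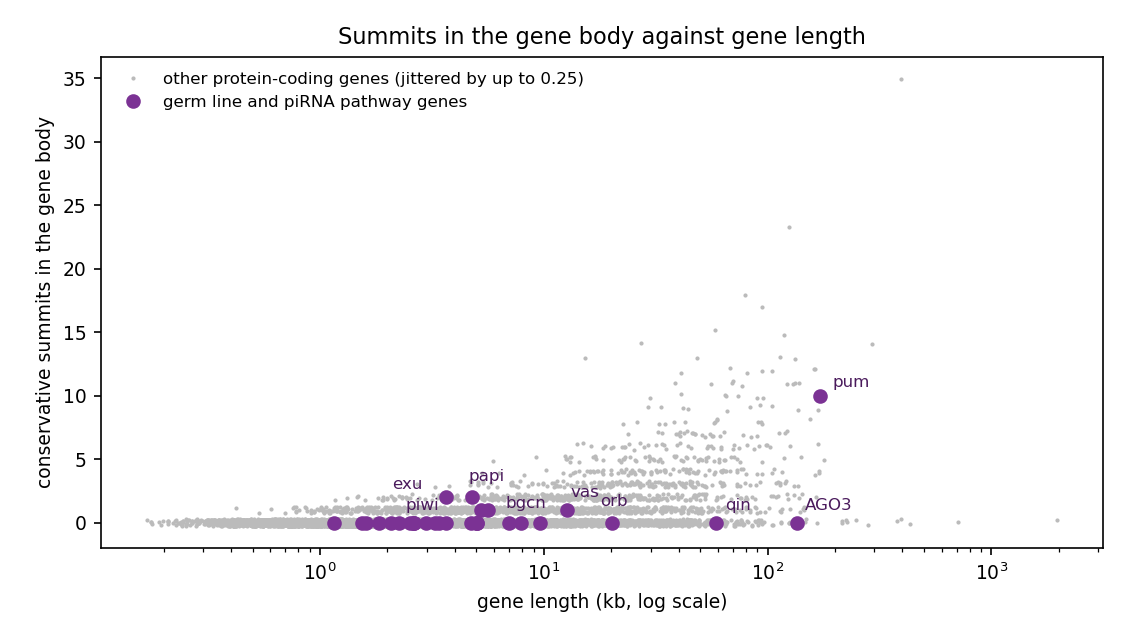
Number of conservative summits in the gene body against gene length (kb, log scale) for the 30 genes (purple) and all other protein-coding genes (grey, moved slightly up or down so that points do not hide each other). Pum has 10 summits, whereas AGO3 and qin, also long, have 0.

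All 10 intragenic summits of pum lay in introns, and the 5 strongest were in the thresholded lists of both replicates. The strongest, of 306.5, had 191.8 in replicate 1 and 118.1 in replicate 2 and lay 10194 bp downstream of the outermost TSS and 648 bp upstream of an internal one. The next, of 289.9, had 164.5 and 123.6, and that of 285.2 had 167.9 and 116.5, at 8408 and 12743 bp. These 3 thus lie within a few kilobases of each other around the internal start site. Farther in, the summit of 241.9 had 128.9 and 110.9 at 77667 bp, and that of 226.0 had 117.5 and 115.3 at 110620 bp. The signals of replicate 2 span less than those of replicate 1 over these 5. The lists differ in scale, so this is not read as a difference in binding. The other 5, from 86.6 to 146.4, passed the threshold in replicate 2 alone (146.4 and 134.2) or in neither replicate (110.4, 106.1 and 86.6).

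**Figure D5:**
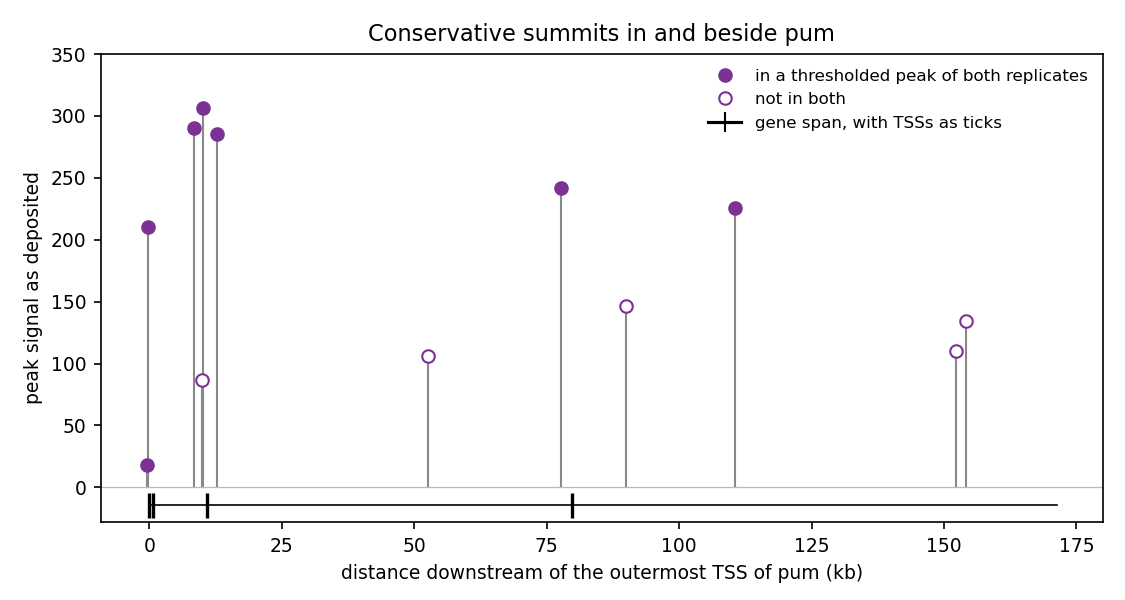
Signal (as deposited) of the 12 conservative summits in and beside pum against distance downstream of its outermost TSS (kb); filled points lie in a thresholded peak of both replicates, open points do not, and ticks on the line below mark the TSSs. The 5 highest intragenic summits, from 226.0 to 306.5, are filled, and those up to 146.4 are open.

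Over all 25 conservative summits at or in these genes, 13 were inside thresholded peaks of both replicates, 1 (gcl) of replicate 1 alone, 5 of replicate 2 alone and 6 of neither. Of all conservative peaks, 54.6% were in both. Pum alone held 12 of the 25, so these counts rest heavily on 1 gene. Among the 13 are the 5 strongest intragenic summits of pum and its promoter summit of 209.9. The weak pum summit of 17.8, in the same replicate peaks as that of 209.9, is also among them. The width of the peak went with presence in both replicates. Exactly 560 bp wide were 28.3% of the conservative peaks, with a median signal of 124.3 beside 223.8 for the others, and 15.4% of them were in both replicates, beside 70.2%. Of the 25 summits, 7 lay in such peaks, among them the promoter summit of exu and the 3 weakest in the body of pum. Of the other 18, 12 were in both replicates.

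A wider list of 51 other germ line and piRNA genes had a promoter summit at 10 (19.6%), beside 18.2% of all genes. Their median signal was 195.1. The replicates' thresholded lists both held 5, among them those at the sex determination gene Sxl (309.4), the early cell cycle gene plu (252.6), the exonuclease gene nbr (210.8) and the piRNA pathway Tudor gene tapas (204.8). Tudor-SN (185.4), wde (165.6) and brat (141.3) were in replicate 1 alone, and tsu (110.8) and egl (103.1) in neither. Another protein-coding gene starts within 500 bp of the summit at plu (RpS18), nbr (Noc2), Tudor-SN (mRpL17), wde (CG12935) and brat (Polr1D). None does at Sxl, tapas, tsu and egl.

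Of the 30 genes, 11 had no promoter or gene body summit in any of the 7 lists read, namely aub, krimp, tud, tej, zuc, vret, shu, del, pgc, grk and bam. A promoter summit was absent from every list for 15, these 11 and AGO3, qin, piwi and rhi. The same counts were not made over all genes, so these absences cannot be called particular to the set. The ranked list of replicate 2, the longest of the replicates' lists, had a promoter summit at 43.1% of all genes. Of the 21 genes without a conservative promoter summit, 12 (57.1%) had the nearest conservative summit within 5 kb of a TSS, beside 28.6% of 11427 protein-coding genes without one. That of aub, of 71.6, lay 2870 bp away where RpL9 and Nup154 start. The other 9 lay farther off, up to 644480 bp at AGO3. With no read counts, no detection limit can be given for the genes without a summit.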

How the data were processed

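Chromatin of whole embryos was precipitated with anti-GFP in 2 biological replicates, per the labels, which give the replicate numbers and 1 group. The files are peak lists on dm6, called by the authors per replicate and on both replicates together, per the deposited readme files. The sources used here do not give the aligner or the peak caller. Peak signal was used as deposited by the authors, on a scale they do not state. The score, also deposited by the authors, is a scaled irreproducible discovery rate with a cap of 1000. The lists hold no read counts, so depth is unknown. In the ranked lists of the series, 16 columns of values for single inputs were not used, and control libraries were not analysed here.

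A gene had a promoter summit where a summit lay within 500 bp of an annotated TSS, and a gene body summit where it lay between the gene's ends (Ensembl release 115, BDGP 6.54). A summit was in a replicate where it lay in a peak of that replicate's list. Motifs were searched within 50 bp of summits in the RefSeq genome of the same assembly. The counting was tested on simulated data with planted summits. The 30 genes, the role groups and the 51 other genes were chosen with earlier results of these data known, so no chance test was made and all values are descriptions. Values in every list are given for each gene with a conservative summit (for the other lists of the series, where they differ), ranked peaks of the replicates for the others, and of the other genes at most the 10 strongest are named, except 1 that is not reported here. Alternatives were the window, the list, each replicate alone, the score, masked summits, the TSS set and the overlap rule. Python 3.11.15, numpy 2.4.6, pandas 2.3.3 and matplotlib 3.10.9 were used. Coordinates are 1-based.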

Additional observations from a re-analysis of the deposited data

How the results depend on the processing

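The count of 9 genes with a promoter summit was 7 with a window of 250 bp (14.0% of all genes), 11 with 1000 bp (21.3%, adding armi and del), 8 at the highest score (14.3%, losing exu), 8 without summits on masked bases (13.7%, losing orb) and 8 with the outermost TSS alone (16.0%, losing papi). It was 6 (14.3%) when a summit counted for the nearest TSS alone, a rule chosen after seeing the data, as was leaving out peaks 560 bp wide (8, beside 13.3%, losing exu). With the 250 bp window, genes whose promoter summit was in both replicates fell from 5 to 2 (orb and squ), since nos, papi and pum lie farther out. The share of all genes under that rule was not counted, so this fall cannot be set beside the background. The other germ line genes with a summit fell from 10 to 6 with this window. Leaving out the 560 bp peaks also left 6 of those 10.

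With 1 replicate's list alone, the promoter count was 7 to 10 (beside 17.3% and 18.4% of all genes), the gene body count 4 to 5 (11.0% and 12.4%), either place 9 to 12 (22.1% and 23.8%), the other genes 8 to 10 and the median promoter signal 85.4 to 203.2, beside 267.0. The lists differ in scale, so that last range is no change in binding. The strongest signal of single genes changed under other settings of the series lists at 2 genes, both with masked summits left out, papi to 148.3 and pum to 289.9, and 3 were lost, orb and piwi there and nos at 250 bp. Most of these settings only keep or drop summits, so an unchanged signal is no separate support. No paired analysis was possible because there is 1 group. Without read counts, depth sets no stated limit here.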
